A study of Mus musculus with 12 samples.

Results

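Immediate-early stress genes are genes that cells transcribe within minutes of a signal such as a growth factor, a cytokine, mechanical handling, heat or DNA damage, without having to make new protein first. Signals carried by the MAP kinases ERK, JNK and p38 act on factors already bound at these genes, and the transcripts are short-lived, so that their level follows the recent history of a cell. In blood-forming cells they are known both as mediators of the response to cytokines and stress and as genes that enzymatic or mechanical preparation of a tissue can switch on. The 10 members described here were chosen by name and are Fos, Fosb, Jun, Junb, Jund, Egr1, Ier2, Dusp1, Nr4a1 and Zfp36. All 10 were among the 35999 genes of the deposited table, and all 10 passed the filter of a mean signal of at least 10, which 8887 genes passed.

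The libraries came from LSK cells, bone marrow cells that carry KIT and Sca-1 and no lineage markers and that include hematopoietic stem cells and multipotent progenitors. The study asked what loss of the Fanconi anemia pathway changes in these cells, and RNA was sequenced from 6 mice labelled WT and 6 mice labelled Fancg KO, which lack a subunit of the Fanconi anemia core complex. No treatment was named for these 12 libraries, and age, sex and strain were not given in the sources used here. Each library carries a replicate number in its title, from 2 to 7 in both genotypes, and the labels do not say what 2 libraries with the same number share.

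The values are called signal here, and were taken to be estimated read counts scaled by 1 size factor per library. The total ran from 1576080 to 2672920 per library, and the approximate depth from 1235110 to 2471420 reads. Fancg itself did not separate the labels (signal 4.76 to 24.1 in the libraries labelled WT and 4.46 to 14.5 in those labelled KO), so direction is given below by label. Zmat3, a p53 target gene, did separate them, at 6.92 to 13.02 in WT and 14.9 to 30.2 in KO (p = 0.00216 by the exact permutation test of 6 against 6, which allows none smaller), and was higher in KO in 6 of 6 same-numbered cases. The limma adjusted p of Zmat3 between the labels was 0.9996. The paper had picked Zmat3 as overexpressed in its own RNA-seq of Fancg KO LSK cells, so this separation is no independent check of the labels. Of the LSK markers, Kit ran from 283 to 435 and Cd34 from 528 to 728, whereas Ly6a, which encodes Sca-1, was low at 4.84 to 17.4. The granulocyte marker Ly6g was at 0 in all 12 libraries and the T cell marker Cd3e did not exceed 0.35. Other markers of mature cells were present, among them the myeloid genes Lyz2 (56.5 to 111), Csf1r (11.8 to 70.3) and Itgam (7.87 to 42.2), and Nkg7 (29.2 to 75.0) and Cd79b (8.46 to 19.9) of the lymphoid list. In whole-population RNA, fewer cells of a type and less RNA per cell cannot be told apart, which holds for every value below.

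The promoters of these genes are where the signals converge. The windows of Fos, Fosb, Dusp1, Zfp36 and Nr4a1 are shown because each holds short motifs bound by factors of this response. The first 4 genes also differed strongly between libraries, and Nr4a1 followed the same replicate numbers less closely. Each window runs from 250 bases before to 50 bases after the RefSeq start (GRCm38.p6), 5′ to 3′ on the strand of the gene. Capitals mark the core of the cAMP response element (TGACG or its complement CGTCA), the full element TGACGTCA, which contains a core on each strand, the EGR site GCGNGGGCG on either strand, the CArG box bound by serum response factor, or a TATA box (TATAAA, on the strand of the gene).
Fos chr12:85473640-85473939, plus strand: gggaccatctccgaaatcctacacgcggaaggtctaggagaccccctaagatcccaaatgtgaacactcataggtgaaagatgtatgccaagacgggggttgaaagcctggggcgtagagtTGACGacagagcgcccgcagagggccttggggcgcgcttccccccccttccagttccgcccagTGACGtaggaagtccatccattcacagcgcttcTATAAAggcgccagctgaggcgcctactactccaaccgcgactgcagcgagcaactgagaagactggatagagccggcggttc
Fosb chr7:19309996-19310295, minus strand: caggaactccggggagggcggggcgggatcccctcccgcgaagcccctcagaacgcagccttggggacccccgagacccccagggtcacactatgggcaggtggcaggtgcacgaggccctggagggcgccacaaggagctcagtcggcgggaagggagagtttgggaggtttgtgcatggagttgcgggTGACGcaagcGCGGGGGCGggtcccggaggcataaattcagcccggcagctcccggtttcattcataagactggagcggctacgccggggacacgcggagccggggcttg
Dusp1 chr17:26508423-26508722, minus strand: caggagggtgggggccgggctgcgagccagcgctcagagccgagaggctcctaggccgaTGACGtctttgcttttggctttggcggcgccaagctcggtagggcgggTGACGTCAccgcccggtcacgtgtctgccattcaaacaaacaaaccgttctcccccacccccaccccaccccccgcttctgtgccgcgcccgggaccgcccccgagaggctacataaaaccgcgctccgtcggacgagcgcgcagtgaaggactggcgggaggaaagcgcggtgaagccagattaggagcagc
Zfp36 chr7:28379179-28379478, minus strand: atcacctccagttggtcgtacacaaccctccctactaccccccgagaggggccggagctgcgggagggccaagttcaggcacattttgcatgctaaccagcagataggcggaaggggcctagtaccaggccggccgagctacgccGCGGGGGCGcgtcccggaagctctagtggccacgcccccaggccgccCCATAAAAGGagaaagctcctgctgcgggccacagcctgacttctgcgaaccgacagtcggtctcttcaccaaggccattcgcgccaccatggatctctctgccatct
Nr4a1 chr15:101266596-101266895, plus strand: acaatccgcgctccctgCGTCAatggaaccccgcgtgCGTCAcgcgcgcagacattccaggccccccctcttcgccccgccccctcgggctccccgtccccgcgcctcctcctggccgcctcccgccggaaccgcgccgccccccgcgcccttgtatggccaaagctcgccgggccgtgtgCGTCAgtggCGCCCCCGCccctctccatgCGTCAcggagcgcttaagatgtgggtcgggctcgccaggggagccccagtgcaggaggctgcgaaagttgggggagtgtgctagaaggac

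Among the 8 members with a promoter in the RefSeq table, 5 held the core of the cAMP response element, against 20.8% of 32851 mouse promoter windows. These were Fos, with cores beginning 129 and 66 bases before the start, Fosb, Junb, Dusp1 and Nr4a1, the last with 4 of them. Dusp1 alone of the 8 held the full element, 143 bases before the start, which 1.79% of all windows hold. The EGR site lay in the windows of Fosb, Nr4a1 and Zfp36 (5.55% of all windows) and the CArG box in that of Zfp36 (1.63%). The AP-1 site TGANTCA, at which Fos and Jun proteins bind as dimers, was in none of the 8 windows and in 7.81% of all. The TATA letters lay in the windows of Fos, 33 bases before the start, and of Junb, directly at the start (8.32% of all windows). The windows of Jun and Jund held none of these letters. For Jund, Dusp1, Nr4a1 and Zfp36 the RefSeq start is not the outer end of the GENCODE gene, so that other annotated starts of these genes were not searched. The Jund window (70697489 to 70697788) ends before the GENCODE gene begins at 70698949, so its lack of matches does not describe that start. The starts of Fosb and Junb also differ, over a short distance. In Junb the RefSeq start and its TATA letters lie upstream of the GENCODE start at 84978718. These are matches of letters and not measured binding, and distal sites lie outside the windows.

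The other regulated end is the 3′ UTR, where AU-rich elements shorten the life of the mRNA. Zfp36 encodes tristetraprolin, the protein that binds the core UAUUUAU and recruits the decay machinery, and its own transcript carries the core. Short windows of the DNA sequence of the principal GENCODE transcript (GRCm38) are shown for 3 members, with each copy of the core TATTTAT in capitals. They cover bases 647 to 671 of the 3′ UTR of Fos, 95 to 119 of Dusp1 and 572 to 596 of Zfp36.
Fos: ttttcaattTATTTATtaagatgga
Dusp1: gctggtcctTATTTATttaacaccc
Zfp36: cttTATTTATgacgacttTATTTAT
For the counts, the longest 3′ UTR of each gene among coding transcripts with a complete 3′ end was used, which for Fosb is not that of the principal transcript. The core was present in 6 of 10 members, with 3 copies each in Dusp1 and Zfp36, 2 in Fos and 1 each in Fosb, Jun and Jund. Of the 8574 tested genes with a 3′ UTR, 33.2% held it at least once and 12.1% more than once, the latter against 3 of 10 members. These longest 3′ UTRs were short in the members, with a median of 764.5 bases against 1331 over the tested genes.

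Signal per kilobase of the principal transcript allows the level of one gene to be set beside that of another. By the median over the 12 libraries, Jun was highest at 209 per kb, followed by Fosb at 120 (range 8.96 to 304), Dusp1 at 84.4, Zfp36 at 79.2, Ier2 at 78.4, Fos at 63.9, Egr1 at 31.7, Jund at 28.9, Junb at 13.9 and Nr4a1 at 5.42. The ranges of neighbours in this order overlapped in every case, so the order is that of the medians only. For Jun, Fosb, Dusp1, Zfp36 and Fos the median is the midpoint of a gap between low and high libraries. No library was at that level, and the gap of Fos ran from a signal of 40.7 to 229. The same held over narrower gaps for Ier2 (signal 106 to 133), Egr1 (136 to 149) and Junb (24.8 to 25.6). The order of these genes therefore depends on where the gap lies. The lowest library of Fos was at 5.81 per kb and the highest at 179, and for Egr1 these were 2.42 and 61.7, and 7 of 10 members spanned more than a factor of 10 across the libraries.

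Fos and Fosb encode the inducible partners of the AP-1 dimer. Fos (chr12:85473890-85477273, plus strand) had a signal in replicates 2 to 7 of 13.2, 20.7, 27.9, 279, 378 and 262 in the libraries labelled WT and of 12.3, 40.7, 34.1, 277, 318 and 229 in those labelled KO. The libraries numbered 2, 3 and 4 were low in both genotypes and those numbered 5, 6 and 7 were high, with no value between 40.7 and 229, whereas the genotypes overlapped over their whole range. Fosb (chr7:19302696-19310051, minus strand) had a signal of 33.9, 117, 43.0, 813, 1148 and 1007 in WT and of 38.2, 161, 86.7, 744, 925 and 1050.2 in KO, in the same order of numbers. Its low and high libraries were those of Fos.

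The Jun proteins are the other partners in AP-1, and all 3 genes have a single exon. Jun (chr4:95049034-95052222, minus strand) had a signal of 144, 257, 472, 860.4, 1323 and 972 in WT and of 106, 273, 398, 890.5, 968 and 912 in KO. The same 6 libraries were high, but the step from the low to the high libraries was smaller than for Fos, and number 2 stood below 3 and 4. Junb (chr8:84974484-84978718, minus strand), a Jun protein that also restrains AP-1 activity, was low throughout, at 16.0, 16.0, 14.8, 40.3, 36.2 and 30.2 in WT and 14.3, 14.01, 24.8, 35.2, 25.6 and 38.0 in KO. Jund (chr8:70698949-70700616, plus strand), the member least dependent on stimulation, was at 20.5, 27.1, 26.8, 73.8, 62.7 and 58.3 in WT and at 15.6, 30.5, 50.4, 58.8, 45.9 and 54.6 in KO. For both, the libraries numbered 5 to 7 lay at or above those numbered 2 to 4, except that for Jund KO replicate 4 lay above KO replicate 6.

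Egr1 encodes a zinc-finger transcription factor induced by ERK, and Nr4a1 an orphan nuclear receptor induced in the same window of time. Egr1 had a signal of 12.1, 52.3, 115, 261, 277 and 245 in WT and of 10.9, 99.0, 136, 266, 149 and 230.5 in KO. Number 2 was far below all others in both genotypes, and KO replicate 6 was well below WT replicate 6. Nr4a1 (chr15:101254269-101274795, plus strand) had a signal of 4.66, 2.57, 8.95, 97.4, 37.9 and 22.1 in WT and of 2.09, 15.8, 58.0, 44.1, 7.25 and 11.9 in KO. It was the exception among the 10, because same-numbered libraries differed by up to 2.57 on the log2 scale and its highest KO library was number 4. Its lowest value corresponds to about 1.93 reads, at which counting error alone is large.

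Ier2 is a short single-exon gene for a nuclear protein of the early growth factor response. Ier2 (chr8:84661331-84662852, minus strand) had a signal of 47.0, 86.5, 106, 149, 169 and 133 in WT and of 48.5, 86.9, 98.5, 163, 143 and 144 in KO. Same-numbered libraries lay closer together than for any other member, with a mean absolute difference of 0.11 on the log2 scale.

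Dusp1 and Zfp36 are the feedback arm, since Dusp1 encodes a phosphatase that inactivates JNK, p38 and ERK and Zfp36 the decay factor introduced above. Dusp1 (minus strand of chromosome 17) had a signal of 30.1, 60.5, 53.9, 263, 433 and 332 in WT and of 41.2, 103, 66.6, 233, 336 and 275 in KO. Zfp36 (chr7:28376784-28380253, minus strand) was at 32.6, 83.7, 87.0, 335, 432 and 357 in WT and at 34.2, 120.2, 141, 301, 313 and 317 in KO. In both genes the lowest library numbered 5 to 7 was above the highest library numbered 2 to 4, whatever the genotype.

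**Figure D1:**
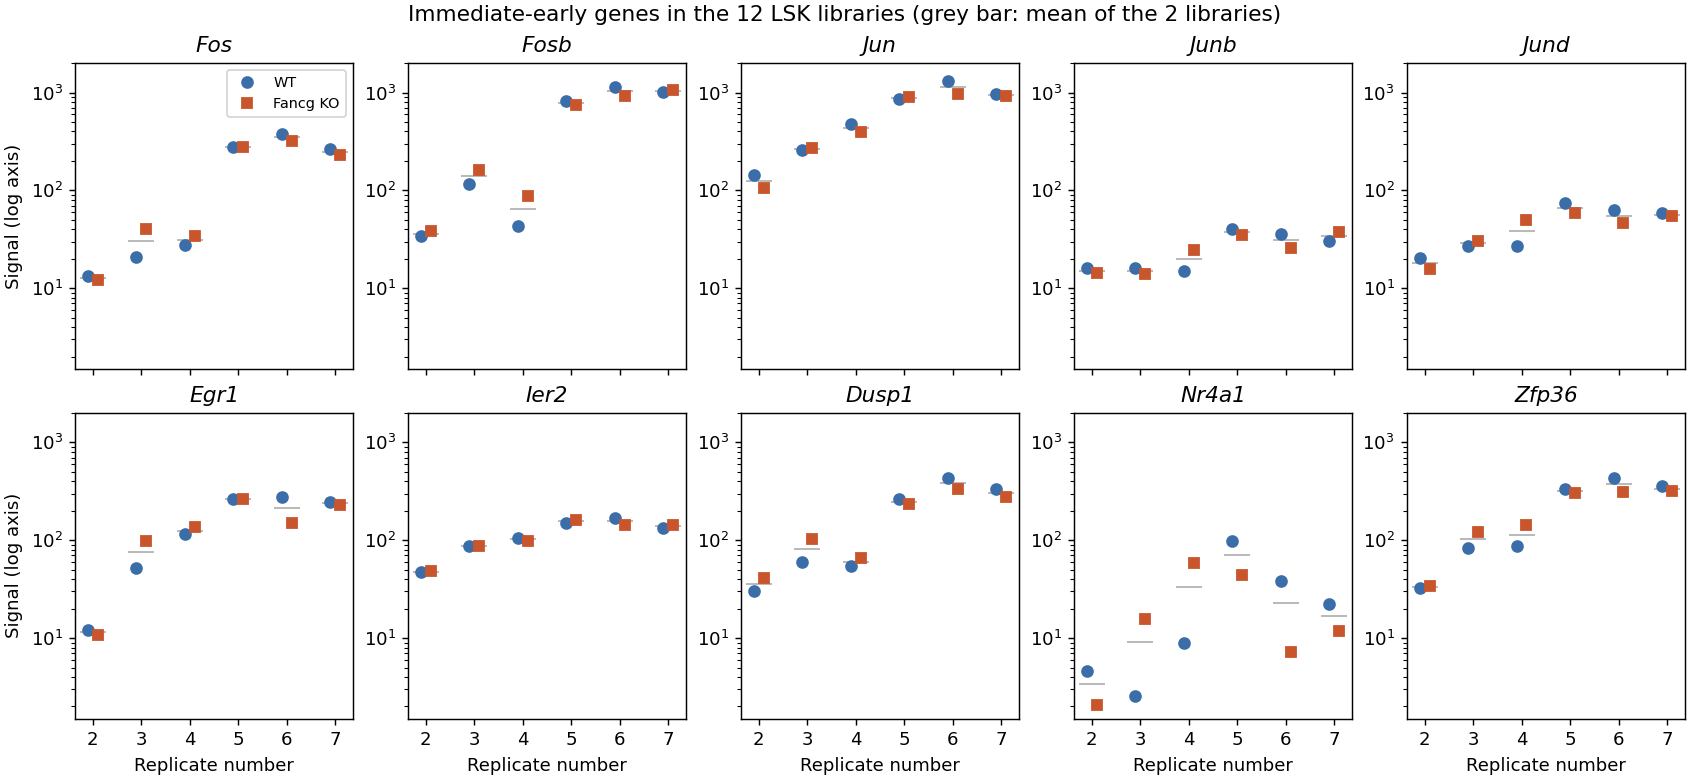
Signal of the 10 immediate-early genes (log axis) in each library by replicate number, with separate symbols for the libraries labelled WT and Fancg KO and a grey bar for the mean of each number. For Fos the same-numbered symbols lie close together except at number 3 (20.7 in WT and 40.7 in KO), while the values run from 12.3 to 378. Nr4a1 is the panel with the widest same-numbered gaps.

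The spread between replicate numbers was tested gene by gene in a limma fit with genotype and replicate number, a test added after the values had been seen. By an adjusted p under 0.05, 1.70% of the genes tested (151 of 8887) differed between numbers, and 7 of 10 members did, namely Fos, Fosb, Jun, Egr1, Ier2, Dusp1 and Zfp36. By an unadjusted p under 0.05 it was 14.3% of genes and 10 of 10 members. The choice of these genes was made with their spread already known, so the counts describe them and are no independent evidence.

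Fosb had the highest F of the members at 121 (limma adjusted p = 9.15e-06), rank 3 of all genes tested, and the mean of its highest number was 28.8 times that of its lowest. Fos followed at 96.6 (adjusted p = 2.34e-05) with a 27.3-fold span, and Jun at 81.7 (adjusted p = 4.57e-05) with 9.16-fold. The feedback genes and Egr1 came next and close together. Dusp1 had an F of 50.04 (adjusted p = 0.000275) and a 10.8-fold span, Egr1 48.9 (adjusted p = 0.000276) and 22.9-fold, and Zfp36 48.4 (adjusted p = 0.000276) and 11.2-fold. Ier2 passed with the smallest span of the 7 (F = 21.1, adjusted p = 0.00531, 3.27-fold). Jund (adjusted p = 0.0722, 3.67-fold), Junb (adjusted p = 0.174, 2.52-fold) and Nr4a1 (adjusted p = 0.292, number means from 3.37 to 70.8) did not pass. On the log2 scale the members spanned 1.28 for Junb to 4.80 for Fosb between their highest and lowest numbers, against a median of 0.80 over all genes tested.

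The lowest mean was at number 2 in 9 of 10 members, the exception being Junb, whose lowest was number 3. Number 2 was lowest in 16.9% of all genes tested. The highest mean was at number 6 in 6 members and at number 5 in the other 4. Without both libraries numbered 2, the adjusted p of Egr1 was 0.118 and that of Ier2 0.183, and their spans were 1.86 and 0.84 on the log2 scale. Ier2 was also lost without KO replicate 2 alone (adjusted p = 0.0520) or WT replicate 2 alone (adjusted p = 0.0564). Jund passed without KO replicate 4 (adjusted p = 0.0238) or WT replicate 4 (adjusted p = 0.0230). Fos, Fosb, Jun, Dusp1 and Zfp36 kept an adjusted p under 0.05 under every alternative run.

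**Figure D2:**
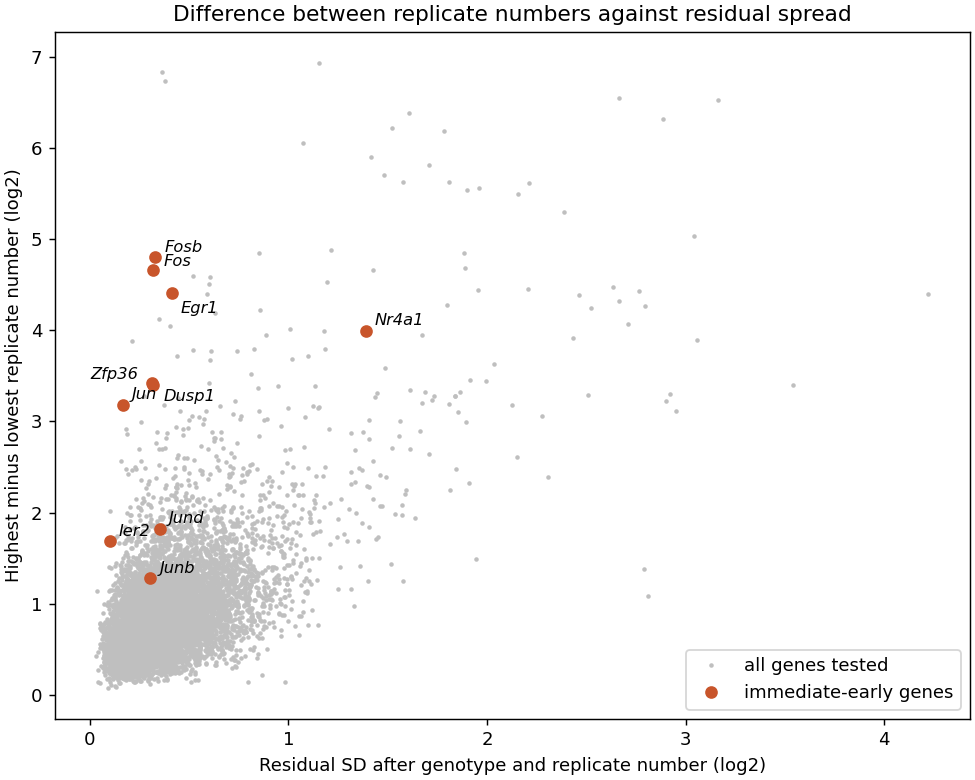
Highest minus lowest replicate-number mean (log2, vertical axis) against the residual SD left after genotype and replicate number (log2, horizontal axis), with 1 grey point per gene tested and the 10 members in orange. Fos, Fosb, Jun, Egr1, Dusp1 and Zfp36 lie at spans of 3.19 or more with a residual SD of 0.41 or less, whereas Nr4a1 lies at a span of 4.00 with a residual SD of 1.39.

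Other measures of the libraries moved with the number too, and their part in these differences was not tested. Lars2, a mitochondrial leucyl-tRNA synthetase gene whose signal was the largest single share of each library, took 15.6% to 19.0% of the total in the 4 libraries numbered 2 and 3, and 24.7% to 36.2% in the other 8. Whether all of this signal came from the mRNA of that enzyme was not tested. The summed signal of the 12 LSK markers ran from 1670 at number 6 to 2242 at number 2 (1848 to 2363 in WT libraries and 1492 to 2172 in KO libraries). That of the 12 neutrophil and monocyte markers ran from 112 at number 2 to 209 at number 6 (124 to 202 in WT and 99.4 to 216 in KO), that of the 10 B and T cell markers from 52.6 to 76.6 (55.3 to 74.4 in WT and 48.1 to 87.5 in KO), and that of the 10 erythroid and megakaryocyte markers was between 18.7 and 81.6 in single libraries. The 10 immediate-early genes summed to 339, 834, 1025, 3091, 3764 and 3341 at numbers 2 to 7, a wider span than any of these marker sums. Of the tested markers, Hlf (11 LSK markers tested, adjusted p = 0.0147) and Ly6c2 (4 neutrophil and monocyte markers tested, adjusted p = 0.0472) differed between numbers, with spans of 1.72 and 3.67 on the log2 scale. Scaling the libraries to a common total brought 489 genes past an adjusted p of 0.05 and added Junb (adjusted p = 0.0241) and Jund (adjusted p = 0.0103) to the members.

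WT and Fancg KO libraries were then compared with each other. No member passed the test between the labels. By limma at an unadjusted p under 0.05, 0 of 10 members passed, against 3.67% of the genes tested (326 of 8887, of which 1.98% of all genes were higher in KO and 1.69% lower), and with adjustment no gene of the 8887 passed. The log2 fold changes of the members ran from -0.18 for Jun to 0.21 for Fosb, with a median of 0.01, and the adjusted p was 0.9996 for each. The KO library was the higher of the same-numbered libraries in 2 to 4 of 6 cases, depending on the gene.

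Among the AP-1 genes, Fos was at a mean signal of 163 ± 161 (SD, n = 6) in WT and 152 ± 138 (SD, n = 6) in KO. Its log2 fold change, the difference of mean log2(signal + 1), was 0.11 with a standard error of 0.95. The 95% interval was -1.91 to 2.14. The mean signal of Fos was thus lower in KO and its mean on the log2 scale higher, so its direction depended on the scale. Fosb had a log2 fold change of 0.21 ± 1.01 (SE) and Jun of -0.18 ± 0.59 (SE). Junb was at 0.00 ± 0.32 (SE), with a 95% interval of -0.67 to 0.68. Jund was at -0.03 ± 0.36 (SE). Egr1 had 0.01 ± 0.79 (SE) and Nr4a1 -0.05 ± 0.80 (SE). Ier2 was at -0.01 ± 0.32 (SE), Dusp1 at 0.11 ± 0.67 (SE) and Zfp36 at 0.08 ± 0.65 (SE). These intervals come from the fit with genotype alone, in which the spread between replicate numbers is part of the spread within each label, and the intervals of Fos and Fosb hold changes of up to 2.14 and 2.36 on the log2 scale in one direction. The exact two-sided permutation test of 6 against 6 gave p from 0.799 to 1 for the members, where 0.00216 is the smallest p it allows.

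Differences this small changed sign with single libraries and with the scaling. The mean of log2(signal + 1) was higher in KO in 10 of 10 members without KO replicate 2 or WT replicate 6. It was higher in 0 of 10 without WT replicate 2 or KO replicate 5. Of the 10 members, 6 had a higher mean log2 signal in the KO libraries as deposited, and 9 after scaling to the total. The count was 8 after scaling to the total without the 15 strongest genes and 4 after quantile normalization. Without logs, the mean deposited signal was lower in KO than in WT for each of the 10 members. Scaling to the total moved the median of the members from 0.01 to 0.08 and that of all genes tested from 0.00 to 0.08, so the members moved with the common shift. The genes past an unadjusted p under 0.05 were split into 176 higher and 150 lower as deposited, 191 and 50 after scaling to the total, 174 and 82 without the 15 strongest genes, and 158 and 169 after quantile normalization. Without WT replicate 3 and KO replicate 7, the 2 libraries low in Y-linked transcripts, Fos was at -0.55 and Egr1 at -0.41. In that fit 0 of 10 members were higher in KO on the log2 scale, and 0 passed.

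**Figure D3:**
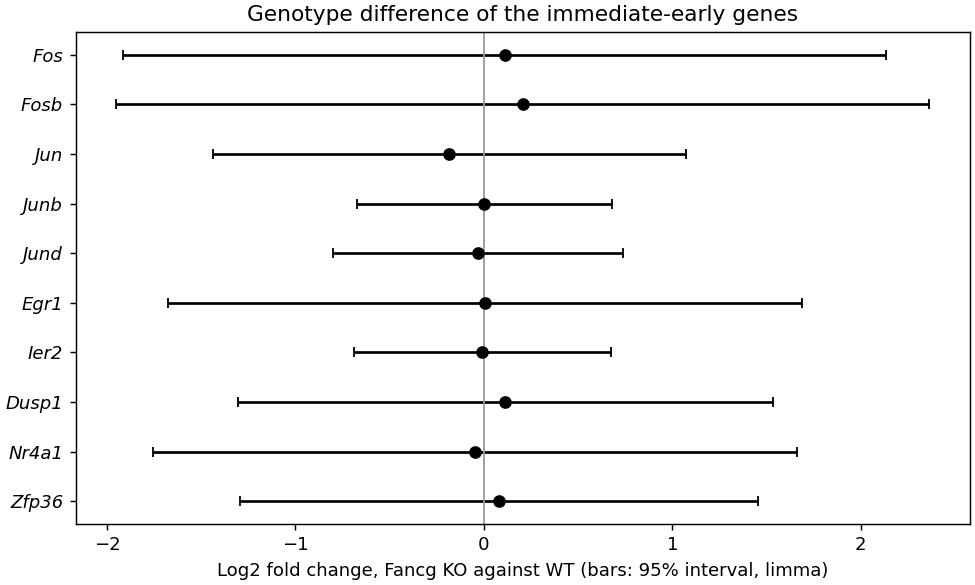
Log2 fold change (libraries labelled Fancg KO against WT, horizontal axis) of each member, with the limma estimate as a point and its 95% interval as a bar. Every interval includes 0, and that of Junb runs from -0.67 to 0.68 and that of Fosb from -1.95 to 2.36.

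The wider early response was read from a list of 47 other stimulus-induced genes, of which 45 were in the table and 28 were tested. Of these 28, 11 differed between replicate numbers (limma adjusted p under 0.05), against the 1.70% of all genes given above, and their median span between highest and lowest number was 1.66 on the log2 scale. The genes past the threshold are named here after their values were seen, as are the marker and heat shock genes given values for their spans. Klf6, a Krüppel-like factor gene, had a span of 3.88 (adjusted p = 7.86e-05) and Klf2, a factor of quiescence in lymphocytes and endothelium, a span of 4.60 (adjusted p = 0.000717), whereas Klf10 did not pass (span 1.04, adjusted p = 0.824). Klf6 ran from 6.82 to 136 in WT and from 8.49 to 117 in KO, and Klf2 from 1.20 to 95.3 in WT and from 2.34 to 85.1 in KO. The ranges of the genotypes overlapped for both genes.

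Rhob, a small GTPase gene of the stress response, had a span of 2.02 (adjusted p = 0.000997), and Btg2, an antiproliferative p53 target, one of 2.48 (adjusted p = 0.00103). Ppp1r15a, which encodes the GADD34 subunit that reverses the block of translation, spanned 2.76 (adjusted p = 0.00399), and Cd69, an early activation antigen of lymphocytes, spanned 2.42 (adjusted p = 0.00509). Regulators of NF-κB followed with Nfkbiz at 1.71 (adjusted p = 0.0191) and Tnfaip3 at 4.22 (adjusted p = 0.0309). Ier5, Trib1 and Plk2 were near the threshold, with adjusted p of 0.0396, 0.0472 and 0.0472, and Plk2 was at 0 in libraries of both genotypes. The most abundant genes of this list were Zfp36l2, a relative of Zfp36, with number means between 937.5 and 1200.5, and Myc, with a 1.23-fold span, and neither differed between numbers (adjusted p = 0.713 and 0.892). None of the 28 had an unadjusted p under 0.05 between WT and KO in the fit with genotype alone, Csrnp1 being next to the threshold (log2 fold change -0.83, limma p = 0.05001, exact permutation p = 0.0909). Rhob was lower in the KO library in 6 of 6 same-numbered cases (exact sign-flip p = 0.0312, the smallest it allows). Its exact permutation p was 0.537 and its limma adjusted p with the replicate block 0.889. How many of all genes tested lay on the same side in 6 of 6 cases was not counted, so the Rhob value is a description only.

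**Figure D4:**
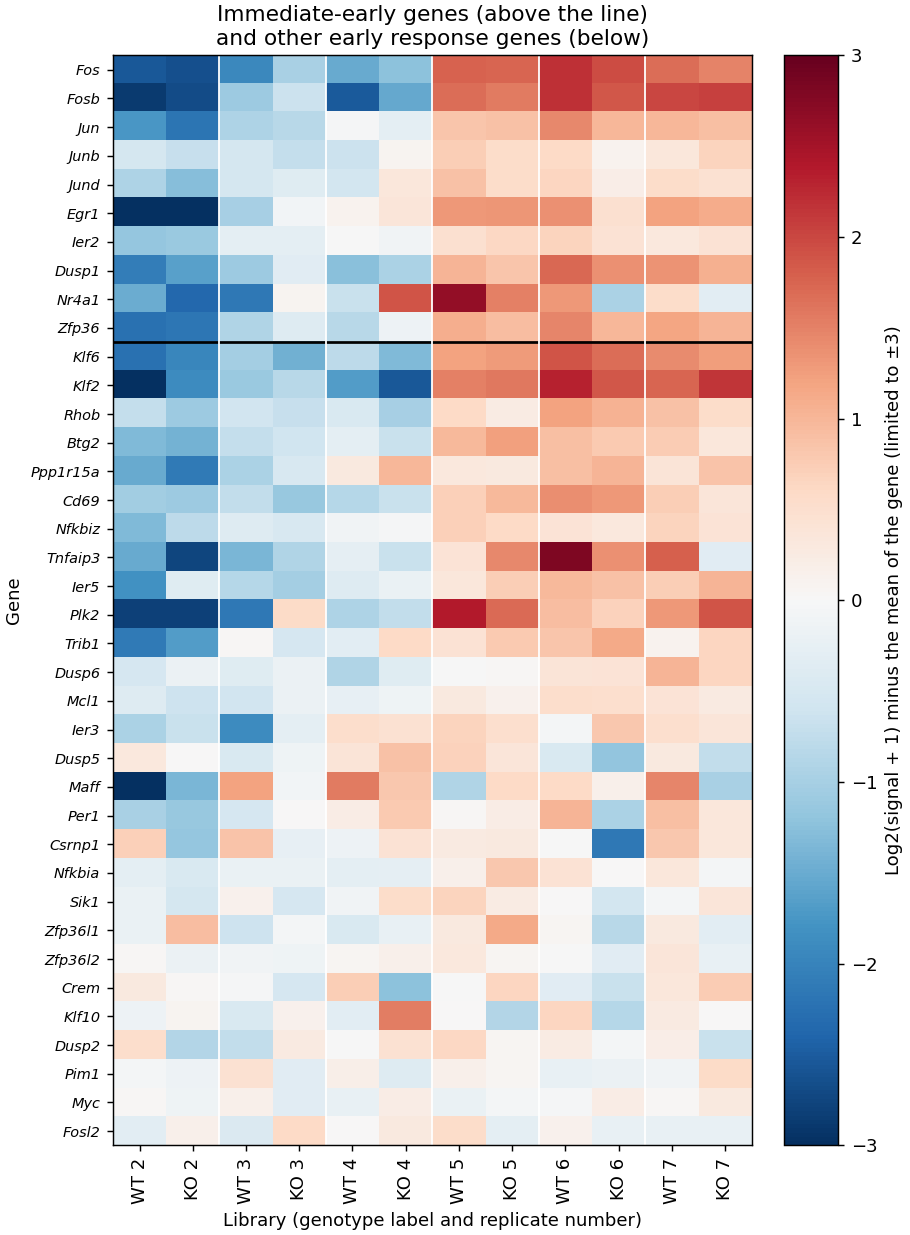
Log2(signal + 1) minus the mean of each gene over the 12 libraries, with colours limited to 3 in either direction, for the 10 members (above the line) and the 28 tested other early response genes (below), with libraries ordered by replicate number and genotype in the columns. The columns numbered 2 are dark blue for Fos, Fosb and Egr1, and the rows of Zfp36l2 and Myc are nearly even.

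The transcripts of the signalling steps above these genes had smaller spans. None of 22 tested kinases and constitutive factors upstream of the response, of 25 listed, differed between numbers, and their median span was 0.54 on the log2 scale. Mapk14, the gene of p38α, ran from 171 to 237 over the 12 libraries, and Rps6ka1, an ERK-activated kinase gene, from 96.9 to 234. Of the other AP-1 partners, 8 of 14 were tested and 0 differed, with Atf2 between 81.9 and 153 and Nfe2l1 between 47.9 and 132. The summed signal of the upstream list stayed between 1227 and 1292 over the 6 number means, beside 339 to 3764 for the immediate-early genes.

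Heat shock genes were examined because they are induced by the handling and warming of cells. None of the 11 tested of 12 differed between numbers by the adjusted p, although the spans of the near-identical copies Hspa1a and Hspa1b were the largest of any list here, at 5.29 (adjusted p = 0.357) and 6.19 (adjusted p = 0.133). These 2 genes share sequence, so how reads were divided between them is uncertain, and both were at 0 in at least 1 library. By an unadjusted p, 3 of 11 passed, against the 14.3% of all genes given above, and Hsp90aa1 lay next to the threshold (span 1.09, adjusted p = 0.0513). The abundant constitutive chaperones Hspa8 and Hsp90ab1 ran from 686 to 1189 and from 359 to 671. Hsph1 was lower in the KO libraries by an unadjusted p (log2 fold change -0.68 ± 0.29 (SE), adjusted p = 0.9996, exact permutation p = 0.0563). Of the marker genes, Flt3 was lower (-0.51 ± 0.23 (SE), exact permutation p = 0.0628) and Itga2b higher (0.72 ± 0.23 (SE), exact permutation p = 0.00433) in KO by the same unadjusted threshold, both with an adjusted p of 0.9996.

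**Figure D5:**
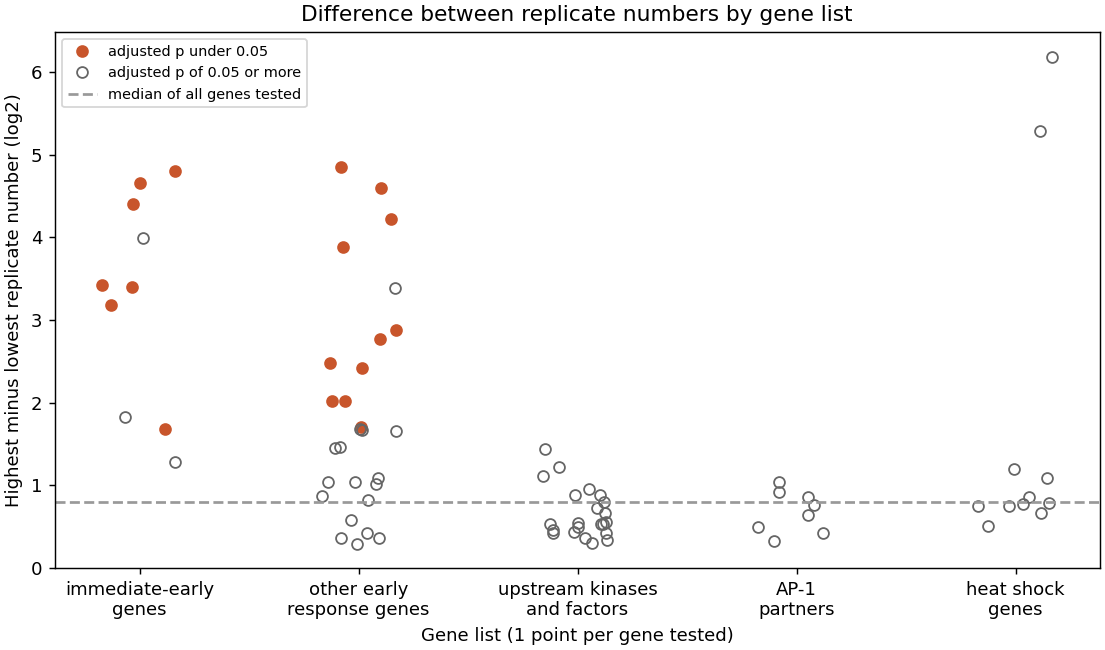
Highest minus lowest replicate-number mean (log2, vertical axis) with 1 point per tested gene in each of 5 lists, filled where the adjusted p of the replicate number was under 0.05, and a dashed line at the median of all genes tested (0.80). The 10 members have a median of 3.41 and the other early response genes of 1.66, and the upstream kinases and factors have a median of 0.54 with no filled point.

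The members also varied together, which was described by correlating each gene with the mean of the members over the 12 libraries after removing the genotype means. Pearson r with that mean, of which each member is itself a part, ran from 0.75 for Nr4a1 to 0.99 for Zfp36. Outside the lists, the genes with the highest r were Tra2b (0.97), a splicing factor gene, Rgs1 (0.95), a regulator of G protein signalling, Spry1 (0.95), a feedback inhibitor of receptor tyrosine kinase signalling, H3f3b (0.93), a histone H3.3 gene, and Ube2l6 (0.93), a ubiquitin and ISG15 conjugating enzyme gene. The points share libraries and depth, and the members have the same low and high libraries, so r describes how closely a gene follows that separation. Between numbers, Rgs1 spanned 4.40 on the log2 scale (adjusted p = 0.00127) and H3f3b 1.15 (adjusted p = 0.0124), whereas Tra2b (adjusted p = 0.116), Spry1 (adjusted p = 0.198) and Ube2l6 (adjusted p = 0.237) did not pass.

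The Fos values fall into a lower cluster of 6 libraries, up to 40.7, and an upper cluster of 6, from 229, so no correlation with Fos was tested over all 12. Within the clusters 18 relations were computed with exact permutation tests, and 0 had an adjusted p under 0.05. Pearson r of Fos with the other members had a median of 0.83 in the lower cluster (0.29 to 0.96, smallest adjusted p = 0.075) and of 0.25 in the upper cluster (-0.23 to 0.79, smallest adjusted p = 0.181). The medians of Spearman's rho were 0.83 (smallest adjusted p = 0.15) and 0.31 (smallest adjusted p = 0.594). Without the 2 libraries farthest from the median of Fos, the median r was 0.45 in the lower cluster and -0.55 in the upper.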

How the data were processed

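The 12 RNA-seq libraries of sorted LSK cells, 6 per genotype label, were analysed. The authors deposited a normalised signal per gene and library, which from the table name and its values is an estimated count divided by a size factor of each library. Their processing notes name kallisto, and its version, the mouse build and the annotation are not given in the sources used here. All 35999 gene names matched GENCODE M21 (GRCm38), and 0 columns were left unused. Depth was estimated from the spacing of the lowest values in each library, taken as 1 read. Only 10.1% to 11.3% of values were whole multiples of that spacing (tolerance 0.001), so no count test was used.

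Genes whose signal averaged 10 or more were tested on log2(signal + 1) with limma 3.58.1 in R 4.3.3 (moderated with a mean-variance trend, two-sided p-values, adjusted by Benjamini-Hochberg over the 8887 genes). Fold changes on this scale understate those of low genes. The main fit held genotype only. An F test of the replicate number, in a fit with genotype and number, was added after the values were seen. Single genes had exact permutation and sign-flip tests (scipy 1.17.1). Where nothing says how replicates were handled beyond 1 library per mouse, p-values measure the spread between these libraries. The fits were also tested on simulated data. A correlation of Fos with each member over all 12 libraries had been planned and was left out, because Fos falls into separate clusters of libraries.

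The members, the gene lists and the tests were chosen with earlier results of these data known. Named were all members, the list genes with an unadjusted p under 0.05 between genotypes or otherwise the 2 most abundant, and the 5 genes outside the lists most like the members. Some results under this rule are not reported here. Genes named for their difference between numbers were chosen after their values were seen. Alternatives were other pseudocounts, filters and scalings, no trend, the replicate number as a block, each library left out, and both libraries low in Y-linked transcripts left out. Leaving out both libraries of a number was added later. Apart from the choice of Zmat3 as a reference, the authors' comparisons and the human experiments were not used here.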

Additional observations from a re-analysis of the deposited data

Results flagged for a closer look

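In 22 sets of 6 libraries (10 members and Fancg in each genotype), Dixon's ratio was taken for the highest and the lowest library. It divides the gap to the neighbouring value by the range of all 6. For normally distributed values, chance passes it in about 1 of 20 sets. There were 2 such values where that rate gives 1.1. The signals were not put on a log scale, and those of Fos fall into separate clusters, so the 1.1 is only a rough guide. Nr4a1, the orphan nuclear receptor gene, had a signal of 97.4 in WT replicate 5, while the other WT libraries ran from 2.57 to 37.9. KO replicate 5 was at 44.1, the second highest KO library for this gene. Fancg, the targeted gene, had a signal of 24.1 in WT replicate 7, and the other WT libraries ran from 4.76 to 9.40.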

How the results depend on the processing

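Between genotypes, 0 members had an unadjusted p under 0.05 under every alternative run. In the fit with genotype alone, the count of all genes past an adjusted p of 0.05 was 0 as well, except that without both libraries numbered 3 it was 1, the gene Gm18853 (range over libraries or numbers left out 0 to 1). At an unadjusted p under 0.05 the 326 genes became 836 without a filter, 91 at a mean signal of at least 50, and 262 to 383 with libraries left out. With the replicate block the count was 476, 0 members passed and 0 genes had an adjusted p under 0.05 over all 12 libraries. Gm18853 passed with the block without KO replicate 3, WT replicate 3 or both, and Gm18853 and Gm18852 passed with the block without WT replicate 3 and KO replicate 7. The block lowered the standard errors of the members from 0.32 to 1.01 to between 0.11 and 0.58, and their p ran from 0.132 to 0.987. The 95% interval with the block was -0.26 to 0.48 for Fos and -0.15 to 0.56 for Fosb. Of the other early response genes, Csrnp1 and Rhob had an unadjusted p under 0.05 with the block. After removal of the genotype means, same-numbered libraries had correlations of 0.25, 0.21, 0.0911, 0.17, 0.36 and 0.0862 for numbers 2 to 7 (mean 0.20). The mean between differently numbered libraries was -0.12, and 9 of 12 libraries correlated best with their own number. Removing the genotype means pushes libraries of the same label below 0 by construction, and same-numbered libraries always differ in label. The value of -0.12 is therefore not a fair baseline, and the count of 9 is partly fixed in advance. Since numbers 4 and 7 were under 0.1 and the labels name no shared animal, litter or day, the pairing is a hint from the data only.

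The 151 genes that differed between replicate numbers became 37 without a filter, 489 scaled to the total, 392 scaled without the 15 strongest genes, 42 without trend, and 51 to 220 with libraries left out. The low end was without number 6 (51) and number 2 (60), and single libraries gave 71 (KO replicate 6), 73 (KO replicate 2), 76 (WT replicate 6), 80 (WT replicate 2), 83 (KO replicate 5) and 86 (WT replicate 5). Members differing were 5 to 9 of 10 over all alternatives, with Ier2 lost without trend (adjusted p = 0.0648).

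Log2 fold changes near 0 changed sign. Without WT replicate 3 and KO replicate 7 they were -0.55 (Fos), -0.38 (Fosb), -0.24 (Junb), -0.41 (Egr1), -0.30 (Dusp1) and -0.29 (Zfp36). Quantile normalization gave -0.015 for Junb and -0.0127 for Egr1, scaling to the total 0.048 (Jund), 0.072 (Ier2) and 0.00875 (Nr4a1), and scaling without the strongest genes 0.00637 (Jund) and 0.0293 (Ier2). With libraries or numbers left out the ranges were -0.39 to 0.65 (Fos), -0.35 to 0.77 (Fosb), -0.55 to 0.24 (Jun), -0.14 to 0.15 (Junb), -0.22 to 0.23 (Jund), -0.60 to 0.64 (Egr1), -0.24 to 0.21 (Ier2), -0.29 to 0.47 (Dusp1), -0.57 to 0.47 (Nr4a1) and -0.36 to 0.52 (Zfp36), and for the median of the members -0.35 to 0.44. Scaling moved the median of all genes by at most 0.08. The cause of these changes was not tested. At a mean signal of at least 50, Junb, Jund and Nr4a1 were not tested. Correlations with Fos were not tried under other scalings. Depth limits the lowest values, which rest on about 1.93 reads for Nr4a1 and 10.1 for Egr1, and counting error covers only part of the spread between mice.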
